A study of Cunninghamia lanceolata with 2 samples.

Results

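The genes described here are the 10 most abundant chitinase genes in a root RNA-seq table of Chinese fir (Cunninghamia lanceolata), a conifer timber tree. Of the 32731 assembled genes of the table, 20 have a product name that contains the word chitinase, and the 10 members were chosen by the highest mean of their 2 deposited levels. Seedlings were kept for 4 months either on low phosphorus, below 0.01 mM (LP), or on sufficient phosphorus at 1 mM (CK), and their roots were sampled. Before that, all plants had been raised in dilute Hoagland nutrient solution. Each group has 1 library, and the labels name no plant, pool or genotype. The question put to the libraries is how the root transcriptome differs with phosphorus supply. Levels are in RPKM, a read count corrected for gene length and library depth. With 1 library a group there is no replicate check and no test, so higher and lower describe these 2 libraries, and every interval is a 95% exact (Clopper-Pearson) interval of the reads that covers counting error only.

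Chitin is a polymer of N-acetylglucosamine found in fungal cell walls and in arthropods, and plants do not make it. Plants nonetheless hold many chitinases, which belong to structurally unrelated enzyme families, some of them with an added chitin-binding domain, and many are secreted and counted among the pathogenesis-related proteins. Others are chitinase-like proteins. In Arabidopsis, one of these acts in cellulose deposition and in the growth of root cells rather than in defence. The table pairs each member with a protein match and with Gene Ontology (GO) terms, and these terms split the members into 3 groups. The first group has a cell wall macromolecule catabolism term and no chitin binding term (2 genes), the second has both terms (3 genes), and the third has a cation binding term in place of the wall term (5 genes). Product names, matches and terms were taken as deposited, with no check against sequence, and the sequences of these genes were not used here.

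The LP library held 48502899 estimated reads and the CK library 17848911. The median log2 ratio of LP over CK, taken as log2((LP + 1)/(CK + 1)) on RPKM over the 30843 genes that average 1 RPKM or more, was -0.16, so a gene at the middle of the table sits slightly below 0. Each member is given with its ratio and with this median subtracted from it. Genes as abundant as the members, averaging 42.7 RPKM or more, had a median of 0.10. The subtraction thus raises each member, whereas the median of these abundant genes would lower it.

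The summed level of the 10 chitinases was almost the same in both libraries, whereas the genes that made it up differed. The members summed to 3108 RPKM in LP roots and 2891 RPKM in CK roots, a ratio of 1.08, or 1.11 to 1.29 under the 3 other scalings tried. They took 0.411% of all reads in LP (0.409 to 0.413) and 0.369% in CK (0.367 to 0.372). By the 2-fold limit, 3 of the 10 stood higher in LP, 2 lower and 5 within it, with a median log2 ratio of 0.16. For comparison, 8.68% of the kept genes passed that limit upward and 16.2% downward. In the 3562 genes as abundant as the members, averaging 42.7 RPKM or more, the shares were 9.52% upward and 6.74% downward, and the median log2 ratio was 0.10. The single ratios ran from -2.39 to 6.66. Without comp26126_c0, the gene with the highest ratio, the other 9 summed to 2768 RPKM in LP roots and 2888 RPKM in CK roots, and their median was -0.10. In bulk RNA, fewer cells of a type and less RNA per cell cannot be told apart.

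**Figure D1:**
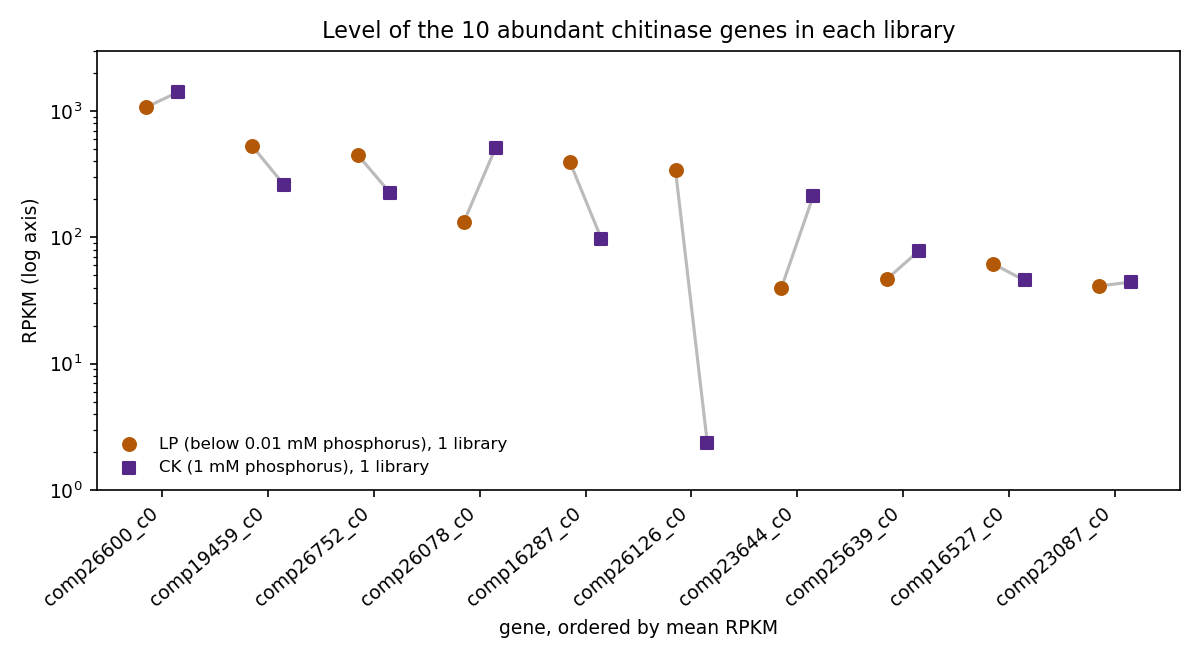
RPKM (log axis) of each of the 10 chitinase genes in the LP library (circles, left of each pair) and the CK library (squares, right), with a line joining the values of 1 gene. The line for comp26126_c0 is the steepest, with 340 RPKM in LP against 2.37 RPKM in CK, while comp26600_c0 is above 1000 RPKM in both libraries.

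The pair with the wall catabolism term and no chitin binding term was higher in LP. The gene comp16287_c0 had 398 RPKM in LP roots and 97.2 RPKM in CK roots, 4.09-fold higher in LP (3.93 to 4.27), on 27116 LP reads and 2427 CK reads. Its log2 ratio was 2.02, or 2.18 after the median of all genes is subtracted. The gene comp19459_c0 had 527 RPKM in LP roots and 261 RPKM in CK roots, 2.02-fold higher (1.97 to 2.07). Its log2 ratio was 1.01, or 1.17 with that median subtracted. Less the median of 0.10 in genes as abundant as the members, it would fall under the 2-fold limit. Both genes carry the same protein match in the table, and their GO lists are alike. Terms for chitinase activity and chitin catabolism are in both lists. These lists name an extracellular protein of lignin biosynthesis, multidimensional cell growth and root epidermal cell differentiation, with responses to cytokinin, nitrate, salt, heat and water deprivation and with ethylene signalling and the regulation of salicylic acid metabolism. Neither gene has the defence response term that the table gives to some other chitinases, and the members comp26126_c0, comp26078_c0, comp23644_c0 and comp16527_c0 also lack it. Summed, the pair had 925 RPKM in LP roots and 358 RPKM in CK roots, 2.58 times as much in LP, and made up 29.8% of the members' summed level in LP and 12.4% in CK. Whether the 2 genes share reads was not tested.

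The 3 genes with both the wall catabolism and the chitin binding term lay within 2-fold. The gene comp26600_c0, with a term for defence against fungi, was the most abundant chitinase of both libraries. It had 1075 RPKM in LP roots and 1413 RPKM in CK roots, 1.31-fold lower in LP (1.3 to 1.33), and stood at rank 42 of all genes in LP and rank 25 in CK. Its log2 ratio was -0.39, or -0.24 after the median of all genes is subtracted. It alone made 34.6% of the members' summed level in LP and 48.9% in CK.

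The gene comp26752_c0, which carries a general defence term, had 446 RPKM in LP roots and 226 RPKM in CK roots, 1.97-fold higher in LP (1.91 to 2.04). This lies just under the 2-fold limit. Its log2 ratio was 0.98, or 1.14 after the median of all genes is subtracted. It passes the limit under each of the 3 other scalings tried, at 1.09 to 1.33. Less the median of 0.10 in genes as abundant as the members, it would stay under the limit. The gene comp25639_c0, named putative chitinase and with the same general defence term, had 46.9 RPKM in LP roots and 78.2 RPKM in CK roots, 1.67-fold lower in LP (1.57 to 1.77). Its log2 ratio was -0.73, or -0.57 with that median subtracted. The 3 genes summed to 1568 RPKM in LP roots and 1717 RPKM in CK roots, which was 50.4% of the members' level in LP and 59.4% in CK.

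The 5 genes with a cation binding term held both ends of the range. At the top was comp26126_c0, with terms for the cell wall and the extracellular region. It had 340 RPKM in LP on 17876 reads and 2.37 RPKM in CK on 46 reads, 143-fold higher in LP (108 to 196). In LP it ranked 296 of 32731 genes, and in CK 24805. Its log2 ratio of 6.66 (6.82 with that median subtracted) ranked 34 from the top among the 30843 kept genes. It made 10.9% of the members' summed level in LP and 0.082% in CK.

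At the other end, comp23644_c0 had 39.6 RPKM in LP roots and 211 RPKM in CK roots, 5.34-fold lower in LP (5.07 to 5.63). Its log2 ratio was -2.39, or -2.23 after the median of all genes is subtracted, and ranked 340 from the bottom. The gene comp26078_c0 had 133 RPKM in LP roots and 512 RPKM in CK roots, 3.86-fold lower (3.74 to 3.98), with a log2 ratio of -1.94, or -1.78 with that median subtracted. It made 4.27% of the members' level in LP and 17.7% in CK, where it was the second most abundant chitinase.

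Both of the lower genes share their protein match with another member, comp16527_c0, which was not lower. It had 61.7 RPKM in LP roots and 45.6 RPKM in CK roots, 1.35-fold higher in LP (1.17 to 1.57), with a log2 ratio of 0.43, or 0.58 after the median of all genes is subtracted. At 343 bases it is the shortest member, against 1099 to 1701 bases for the others, and whether it is a fragment of a longer transcript was not tested. Together the 3 genes of this match had 234 RPKM in LP roots and 769 RPKM in CK roots, 3.29 times less in LP. The fifth gene of the group, comp23087_c0, has terms for the lysosome, chitin binding, an immune response and a response to bacteria. It had 41.2 RPKM in LP roots and 44.2 RPKM in CK roots, and the interval of its fold, 0.868 to 1.00, reaches 1. Its log2 ratio of -0.10 became 0.06 with the median of all genes subtracted, so it has no direction that holds across scalings. All 5 genes together came to 615 RPKM in LP roots and 815 RPKM in CK roots, which was 19.8% of the members' level in LP and 28.2% in CK. The sum joins 1 gene far higher and 2 genes lower in LP.

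**Figure D2:**
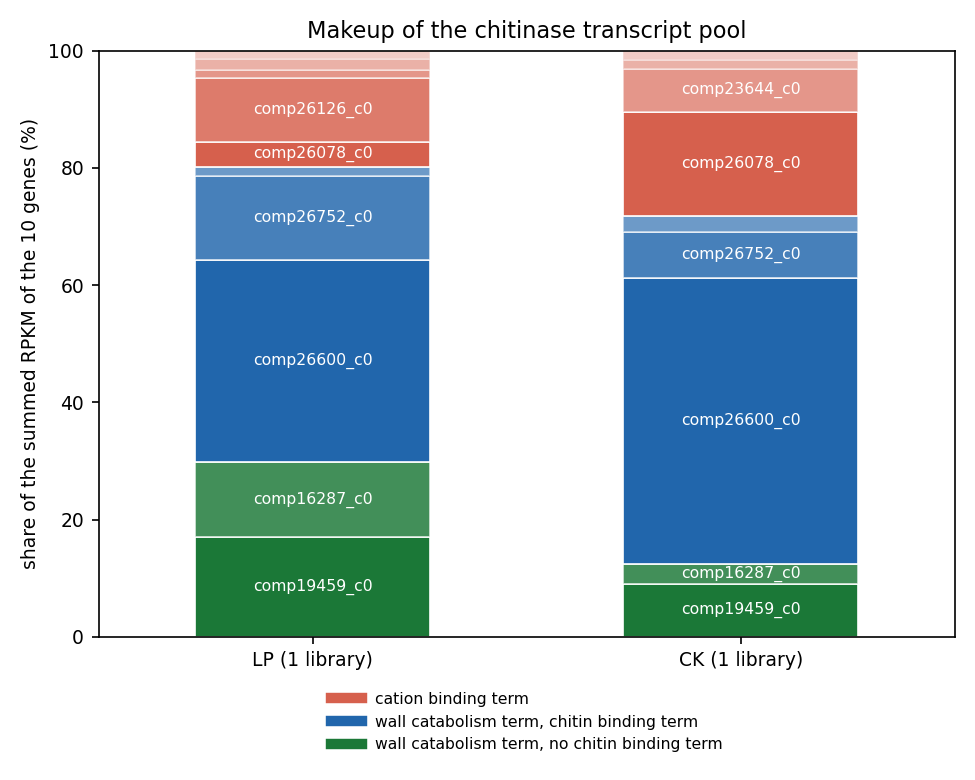
Share of each of the 10 genes in their summed RPKM (%), for the LP library (left bar) and the CK library (right bar), coloured by GO group. The green pair takes 29.8% in LP and 12.4% in CK, comp26126_c0 is a visible block in LP alone, and comp26078_c0 takes 4.27% in LP and 17.7% in CK.

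The tenth member, comp23087_c0, had a mean of 42.7 RPKM, and the next chitinase gene, comp151233_c0, had 11.9 RPKM in LP roots and 10.2 RPKM in CK roots, so the limit falls in a gap. The 10 chitinase genes below it summed to 59.1 RPKM in LP roots and 46.5 RPKM in CK roots, and the members held 98.1% of the level of all 20 genes in LP and 98.4% in CK. By the 2-fold limit, 4 of these 10 less abundant genes stood higher in LP, 1 lower and 5 within it. Their median log2 ratio was 0.08. Of all kept genes, 8.68% were higher and 16.2% lower. The 4 higher chitinase genes rest on few CK reads. The gene comp14381_c0 had 252 reads in LP and 2 in CK (46.4-fold, 12.7 to 386). The gene comp223341_c0 had 70 in LP and 2 in CK (12.9-fold, 3.43 to 108), and comp163670_c0 had 38 in LP and 2 in CK (7.13-fold, 1.84 to 61.0). The gene comp6866_c0 had 306 reads in LP and 36 in CK, 3.12-fold higher (2.2 to 4.53). It shares its protein match with comp151233_c0 and comp17340_c0, which lay within 2-fold.

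The lower gene, comp113414_c0, had 1.86 RPKM in LP roots and 5.92 RPKM in CK roots, on 23 LP reads and 27 CK reads, 3.18-fold lower in LP (1.76 to 5.81). It has a cation binding term, as do both lower members, but so do comp26126_c0, higher in LP, and comp16527_c0 and comp23087_c0, within 2-fold. Another gene with a wall catabolism term and no chitin binding term, comp163670_c0, was higher in LP like the pair above it. That value rests on 38 LP reads and 2 CK reads, and its interval (1.84 to 61.0) reaches below 2-fold. One gene named chitinase, comp24251_c0, carries receptor kinase and plasma membrane terms and no chitinase term, so its product name and its GO terms disagree. It had 4.88 RPKM in LP roots and 7.44 RPKM in CK roots. In all 20 genes, 7 were at least 2-fold higher, 3 lower and 10 within that limit (median log2 ratio 0.08). The shares among all kept genes were 8.68% higher and 16.2% lower. With at least 10 reads asked of each library, 4 of the 20 were higher.

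**Figure D3:**
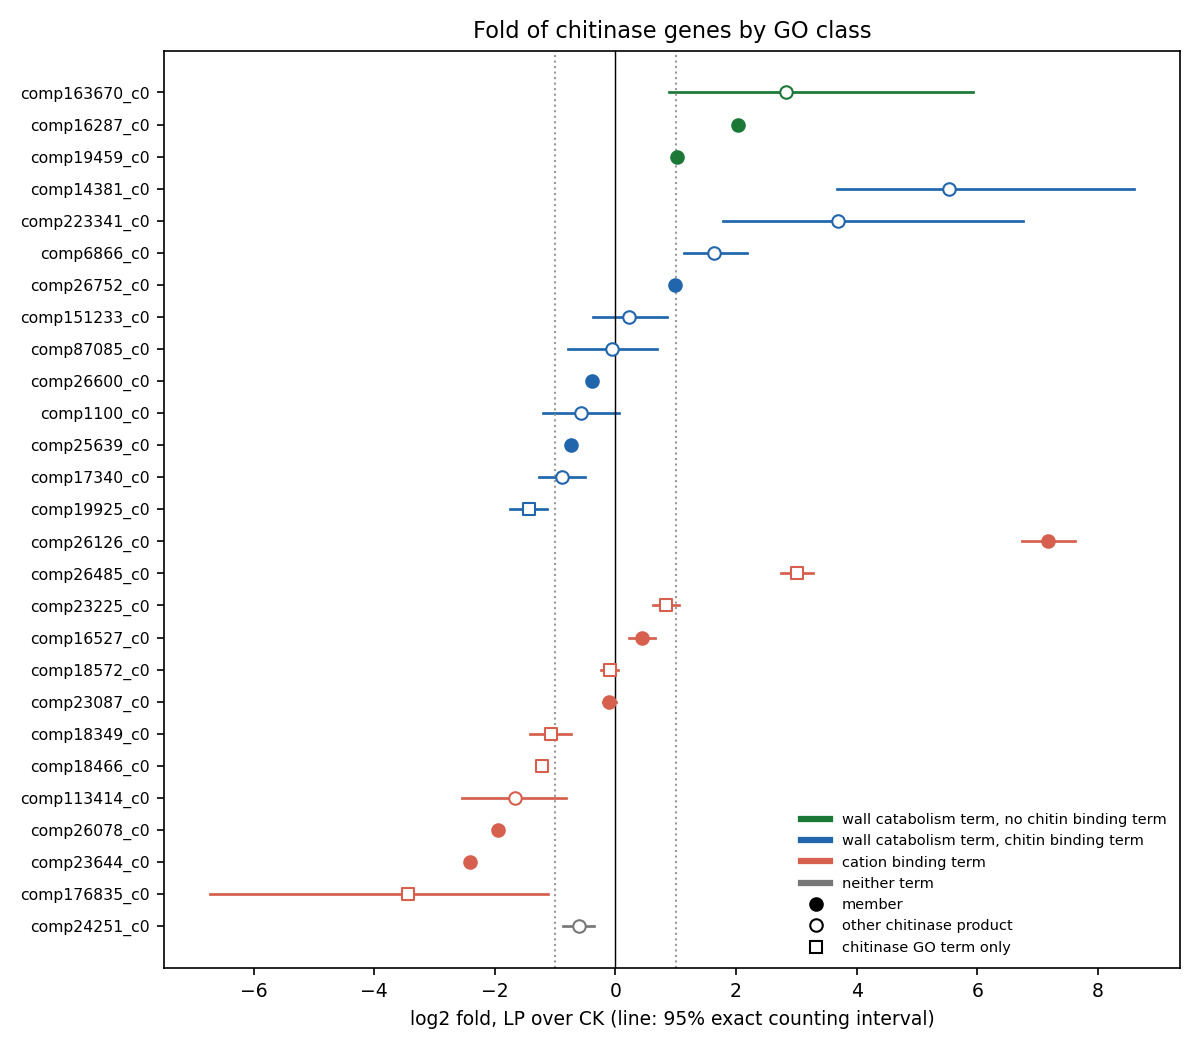
Log2 fold of LP over CK for the chitinase genes, with 95% exact counting intervals as lines and dotted lines at 2-fold. The fold has no added constant: it compares RPKM, and reads as a share of the library for genes under 1 RPKM. Filled circles are the 10 members, open circles the other 10 genes named chitinase and open squares the genes with a chitinase GO term alone (1 of the 8 had 0 reads in CK and is not drawn). The 3 green genes lie at or right of the upper dotted line, and the red group reaches from comp26126_c0 at the far right to comp23644_c0 and comp176835_c0 at the left.

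A further 8 genes have a chitinase activity term but no chitinase product name, and the rule does not reach them. They summed to 189 RPKM in LP roots and 166 RPKM in CK roots. Of the 7 that average 1 RPKM or more, 1 was at least 2-fold higher, 3 were lower and 3 lay within that limit. Among all kept genes 8.68% were higher and 16.2% lower. The gene comp26485_c0, assembled in 7 transcripts, had 97.9 RPKM in LP roots and 12.2 RPKM in CK roots, 8.01-fold higher in LP (6.71 to 9.65). The gene comp18466_c0 had 33.0 RPKM in LP roots and 77.1 RPKM in CK roots, 2.34-fold lower (2.21 to 2.47). Both have cation binding and chitin binding terms, and in mean level they fall between the members comp25639_c0 and comp16527_c0. The gene comp19925_c0, which has a term for defence against insects, was 2.71-fold lower (2.19 to 3.35). The gene comp176835_c0 had 2 reads in LP and 8 in CK, and comp121916_c0 had 9 in LP and 0 in CK.

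**Figure D4:**
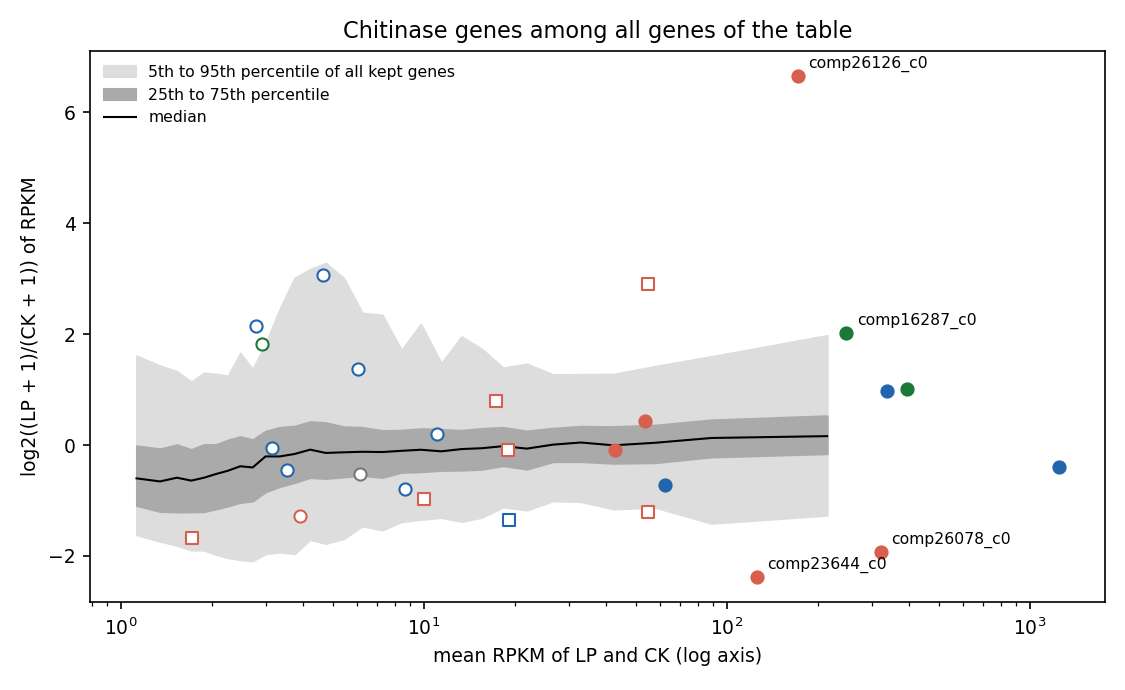
Log2((LP + 1)/(CK + 1)) of RPKM against the mean RPKM of both libraries (log axis), with chitinase genes as points (marks as in the plot of folds) over grey bands for all 30843 kept genes in 30 bins of abundance. The gene comp26126_c0 at 6.66 lies far above the pale band, and comp23644_c0 lies below it. The bands are drawn up to 214 RPKM. More abundant genes, such as comp26078_c0 at -1.94 and comp26600_c0 at -0.39, the most abundant, lie to the right of their end.

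The authors' deposited table marks 5 of the 10 members as significant and 5 as not, against 10.4% of all genes marked either way. That share covers genes of every level, whereas the members were chosen for high levels, so the 2 are not matched in read depth. In the authors' deposited table the marked genes have an absolute log2 fold change of at least 1 and a p-value of up to 0.05, while their FDR reaches 0.35. The 5 marked members are comp19459_c0, comp16287_c0, comp26126_c0, comp26078_c0 and comp23644_c0. The gene comp26752_c0, with a log2 fold change of 0.98 and an FDR of 0 in the authors' deposited table, is not marked. That comparison is between the same 2 libraries and does not measure the spread between plants.

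Other genes that act on chitin or on the same glycans were found by words in their annotation, leaving out the 20 genes named chitinase. The words found 22 kept genes, with 6 at least 2-fold higher, 5 lower and a median log2 ratio of -0.24, but 7 of these are the genes with a chitinase activity term given above. Without them, 15 kept genes had 5 higher, 2 lower and 8 within 2-fold, and their median was -0.06, against -0.16 for all genes. The chitin deacetylase comp123313_c0 is also among the 15. The most abundant, comp18413_c0, has chitin binding and fungal and bacterial defence terms but no product name. It had 298 RPKM in LP roots and 762 RPKM in CK roots, 2.56-fold lower in LP (2.5 to 2.62). The gene comp18600_c0, a beta-hexosaminidase, which frees single amino sugars from glycan ends, had 24.2 RPKM in LP roots and 0.82 RPKM in CK roots, 35.7-fold higher (16.3 to 97.7) on 582 LP reads and 6 CK reads. The KEGG pathway of amino sugar and nucleotide sugar metabolism holds 19 of the 20 chitinases. Its other 78 kept genes had 11 higher, 0 lower and a median of 0.20. The counts of this paragraph stand against 8.68% higher and 16.2% lower for all kept genes.

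Markers of a fungal source were searched for in the same annotation. No gene matched chitin synthase, hydrophobin or cerato-platanin. Of the 5 genes found, 3 are chitin deacetylases, which together had 125 reads in LP and 0 in CK, and most of these, 112, belong to comp123313_c0 at 7.92 RPKM in LP. The other 2, with an ergosterol term, had 1282 reads in LP and 610 in CK. The gene comp13659_c0, named phosphomevalonate kinase, had 1279 of these LP reads and all 610 CK reads. The gene comp181859_c0, named as an E3 ubiquitin-protein ligase, had 3 reads in LP and 0 in CK. The whole marker list summed to 20.5 RPKM in LP roots and 14.7 RPKM in CK roots, where only comp13659_c0 had reads. Green tissue markers (83 genes) summed to 743 RPKM in LP roots and 1159 RPKM in CK roots, and without the photosystem gene PsbA, comp24767_c0, to 694 RPKM in LP roots and 725 RPKM in CK roots. Of the 81 kept markers, 63 lay within 2-fold. Root markers (34 genes, by root hair and root cap terms, with none matching Casparian or endodermis) summed to 1733 RPKM in LP roots and 1742 RPKM in CK roots. The part of any of these in the chitinase values was not tested.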

How the data were processed

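Per the labels' protocols, root RNA was extracted with Trizol, selected on oligo(dT) beads and sequenced as paired-end Illumina libraries, 1 per group. The same text also names an adipose type and a poly(A)- fraction, so the RNA fraction is uncertain. No assembler, aligner, counter or test is named: each is not given in the sources used here. The authors deposited estimated counts, which are neither normalized nor always whole, and RPKM values, per the file headers. RPKM rebuilt from a member's reads, effective length and library total was 0.831 to 1.05 times the deposited value. The deposited log2 fold change equalled log2 of the RPKM ratio within 0.005 in all 25479 genes at 1 RPKM or more in LP and in CK. The authors' deposited p-value and FDR are rounded to 2 decimals.

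Ratios used a pseudocount of 1 RPKM and a mean of at least 1 RPKM, which understates the folds of low genes. Folds compare RPKM, and reads as a share of the library for genes under 1 RPKM in either. Intervals used reads rounded to whole numbers (SciPy 1.17.1). TMM factors came from edgeR 4.0.16 as a scaling alternative, and no count test was run. The calculation was tested on simulated data. The members and gene lists were chosen with earlier results of these data known. All 10 members are named. In each other list the 2 highest and 2 lowest ratios and the most abundant gene, at a mean of at least 2 RPKM, may be named, and the remaining chitinase genes named were chosen after their values were seen. The list for thaumatin-like and other pathogenesis-related proteins matched 0 genes, because its words are not in the table.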

Additional observations from a re-analysis of the deposited data

How the results depend on the processing

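No library could be left out of a group. No paired analysis was possible because each group has 1 library. The 5 other pseudocounts and scalings gave 50 values for single members, of which 20 moved by more than the counting interval allows. Filters on low values cannot change a single member. Among these 5 the only call at 2-fold that changed was that of comp26752_c0, and the only sign that changed was that of comp23087_c0 (lowest -0.10, highest 0.16). With 5 RPKM as the pseudocount, the log2 ratio of comp26126_c0 was 5.55. With the top 20 genes as members 7 were at least 2-fold higher, and 1 was lower with the top 5 or with a 4-fold limit. The median log2 ratio of the members was 0.42 with TMM scaling, which scales LP up by 0.24 in log2, 0.98 in the top 5 and -0.25 in the top 10 by CK level alone. Of 2 alternatives added after the data were seen, leaving out comp26126_c0 gave -0.10 and leaving out the gene under 1000 bases also gave -0.10. The summed ratio was 1.2 after centring on the median gene, 1.29 with TMM, 1.11 in reads scaled to depth without length, 1.03 in the top 5, 0.957 in the top 10 by CK and 0.959 without comp26126_c0. Of all 20 genes, 4 were higher with a pseudocount of 5 RPKM, with a mean of at least 5 RPKM, or with at least 10 reads in each library. With the 8 genes known by GO term added, also after the data were seen, 6 were lower. Low CK depth limits the less abundant genes most, as 3 reads in CK equal 0.168 RPKM at 1000 bases, against 0.0619 RPKM in LP.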

Other observations

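Beta-1,3-glucanases cut another polymer of fungal walls. Of 29 such genes, 2 were at least 2-fold higher, 3 lower and 24 within that limit (median log2 ratio 0.25), against 8.68% higher and 16.2% lower among all kept genes. Summed, they had 1811 RPKM in LP roots and 3003 RPKM in CK roots. The glucan endo-1,3-beta-D-glucosidase gene comp26227_c0 had 253 RPKM in LP roots and 1549 RPKM in CK roots, 6.12-fold lower in LP (5.98 to 6.27). Without it the other 28 genes summed to 1558 RPKM in LP roots and 1454 RPKM in CK roots. The glucanase gene comp24523_c0 had 33.4 RPKM in LP roots and 151 RPKM in CK roots, while comp6335_c0 had 131 RPKM in LP roots and 55.7 RPKM in CK roots.

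The counts that follow stand against the same 8.68% higher and 16.2% lower for all kept genes, whose median log2 ratio was -0.16. Genes annotated to the perception of or response to chitin (49 kept) had 3 higher, 14 lower and a median of -0.37. The EREBP-like transcription factor comp35429_c0 stood apart at 52.8 RPKM in LP roots and 1.67 RPKM in CK roots, 31.6-fold higher (22.4 to 46.3). The EREBP-like factors comp8955_c0 and comp17189_c0 of the same list went the other way. They were 5.44-fold lower in LP (4.42 to 6.71) and 10.1-fold lower (7.76 to 13.2). Genes with a fungal defence term (73 kept without the 1 chitinase) had 6 higher, 20 lower and a median of -0.42. Among them comp20677_c0, with terms for the cell wall and for defence against bacteria and fungi, had 52.7 RPKM in LP roots and 302 RPKM in CK roots. Salicylic acid response genes (115 kept) had 12 higher, 31 lower and a median of -0.35. Ethylene and jasmonic acid response genes (78 kept) had 9 higher, 10 lower and a median of -0.04. Of 10 proteinase inhibitors 1 was higher, comp18051_c0 at 227 RPKM in LP roots and 84.8 RPKM in CK roots, and 0 were lower. The 6 genes with a wall catabolism term that are not named chitinase had 0 higher, 1 lower and a median of 0.06. The lower one is comp19925_c0, given above among the genes with a chitinase activity term. Phosphate starvation genes (39 kept) had 23 higher, 5 lower and a median of 2.29.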
